A study of Mus musculus with 31 samples.

Results

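MiR-129 is a neuronal microRNA family whose mature arms are counted in 3 rows of the deposited tables: mmu-miR-129-5p, mmu-miR-129-1-3p and mmu-miR-129-2-3p, written below without the species prefix. The rows were chosen by name, so the 3 members are 3 of the 1966 mature microRNAs counted. They were followed over 31 small RNA libraries of the right hippocampus of C57Bl/6 J mice. All libraries came from 2 genotypes, wildtype (WT) and 5-HTT KO (KO), the latter lacking the serotonin transporter. In each genotype some mice received water under standard housing, some exercised and some received corticosterone, a glucocorticoid released in stress, with 4 weeks given as the length of exercise and corticosterone treatment. There were 7 libraries of WT-water, 5 of WT-exercise, 6 of WT-corticosterone, 6 of KO-water, 5 of KO-exercise and 2 of KO-corticosterone. The sources used here do not give the age or sex of the mice, the form of exercise or the route of corticosterone. No count here measures the transporter mRNA, so genotype rests on the labels. The labels call the libraries of a group biological replicates, and each library was taken as 1 animal.

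A microRNA hairpin is cut into a 5p arm and a 3p arm, and an arm loaded into an Argonaute protein represses messenger RNAs that pair with its seed, the bases near its 5′ end. MiR-129-5p is known in hippocampal neurons as a repressor of Kcna1, which encodes a voltage-gated potassium channel, and as a factor in the downscaling of synapses after raised activity. It is also studied in epilepsy. The 3p arms come from the same hairpins and are less studied.

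The family has 2 hairpin genes that give an identical 5p arm but separate 3p arms. The mature sequences below, from RefSeq (GRCm38.p6), show why the 5p row cannot be assigned to a gene, with the seed (bases 2 to 8) in capitals.
miR-129-5p: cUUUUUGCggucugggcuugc
miR-129-2-3p: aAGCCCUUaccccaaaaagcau
The 2 seeds differ, and no other counted microRNA with a RefSeq entry carries either. RefSeq entries matched 1675 of the 1966 counted microRNAs, and 2 of the 3 members. MiR-129-1-3p had no such entry, so its seed was not compared. Its hairpin, Mir129-1, also holds the seed bases of miR-129-2-3p. If both 3p arms begin at the same base, they share that seed, so it cannot be taken as particular to miR-129-2-3p.

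The hairpins are shown because they share most of the 3p stretch as well. Capitals mark the miR-129-5p sequence and the longest leading stretch of miR-129-2-3p that each hairpin holds.
Mir129-1: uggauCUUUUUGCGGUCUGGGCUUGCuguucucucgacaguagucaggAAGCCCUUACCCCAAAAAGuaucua
Mir129-2: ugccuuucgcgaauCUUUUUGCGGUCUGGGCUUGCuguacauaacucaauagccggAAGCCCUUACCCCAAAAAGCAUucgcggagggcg
The Mir129-1 hairpin holds the leading 19 of the 22 bases of miR-129-2-3p and differs from it by the substitution C20U, counted from 1 at the 5′ end of miR-129-2-3p. A read of the shared stretch that ends before that base fits both hairpins, and the sources used here do not say how such reads were counted. Mir129-1 lies at chr6:29022619-29022691 on the plus strand of GRCm38, within an exon of the long noncoding RNA gene Gm3294 (GENCODE, chr6:28981634-29028922). Mir129-2 lies at chr2:94241364-94241453 on the minus strand, in an intron of the noncoding gene Mir670hg (chr2:94160636-94264918). A further hairpin, Mir129b, is annotated on the plus strand opposite Mir129-2 at chr2:94241378-94241442. Its arms had 4 counts (miR-129b-5p) and 1 count (miR-129b-3p) over all 31 libraries, while miR-129-2-3p, from the opposite strand, had 175109. Whether counting used strand is not stated. MiR-670-3p, from the other hairpin within Mir670hg, stood at 17.1 ± 4.49 CPM in WT-water (SD, n = 7).

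Levels are CPM, the counts of a microRNA scaled to a common library total with TMM factors over all 31 libraries. The arms are of nearly equal length, so their levels were compared without a length correction. Over all libraries miR-129-2-3p averaged 2635 ± 598 CPM (SD, n = 31), miR-129-5p 337 ± 116 CPM and miR-129-1-3p 121 ± 30.5 CPM. By counts miR-129-2-3p was the highest of the 3 arms. It ranked at position 53 of all microRNAs by total count, with miR-129-5p at 159 and miR-129-1-3p at 234. Reads of miR-129-5p fit both hairpins, and how such reads were counted is not stated. The counts therefore do not settle which arm was more abundant in the tissue. Counts per library ran from 280 to 1343 for miR-129-5p, from 105 to 535 for miR-129-1-3p and from 2374 to 9085 for miR-129-2-3p. Among WT-water libraries miR-129-5p was the steadiest arm, with a coefficient of variation of 12%, against 32.4% for miR-129-1-3p and 16.4% for miR-129-2-3p.

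By group mean, miR-129-5p was ordered WT-exercise (439 ± 166 CPM), WT-corticosterone (395 ± 56.1), KO-exercise (387 ± 85.0), KO-corticosterone (341 ± 6.82), KO-water (294 ± 91.3) and WT-water (215 ± 25.7), each mean ± SD. MiR-129-2-3p had another order: KO-water (3248 ± 678 CPM), WT-exercise (2942 ± 756), KO-corticosterone (2749 ± 157), WT-corticosterone (2480 ± 320), KO-exercise (2283 ± 228) and WT-water (2243 ± 368). For miR-129-1-3p the order was KO-water (142 ± 23.0 CPM), WT-exercise (139 ± 31.7), KO-corticosterone (125 ± 19.0), WT-corticosterone (116 ± 29.6), WT-water (109 ± 35.3) and KO-exercise (98.7 ± 17.1). In no arm did neighbours in these orders differ by more than the larger of their SDs. The 3p arms of the 2 genes shared the 4 highest groups in the same order, and miR-129-5p differed from both.

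**Figure D1:**
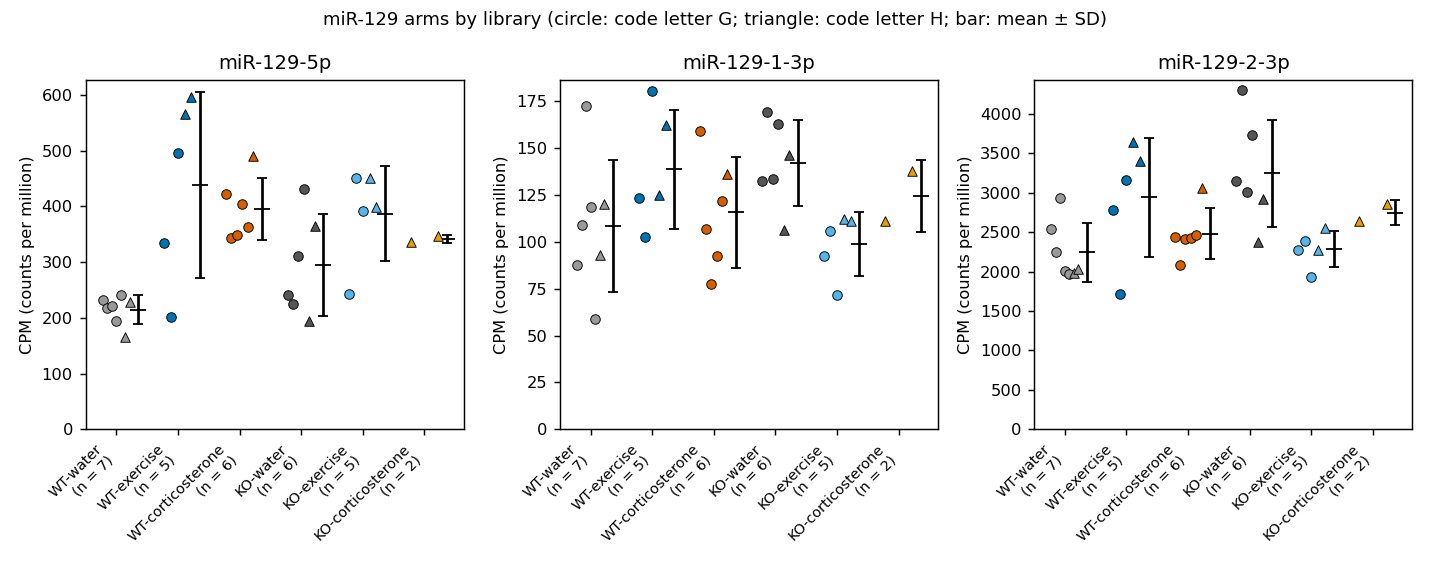
CPM of each miR-129 arm (y axis, linear, from 0) in each of the 31 libraries, by group; circles are libraries whose sample code starts with G, triangles with H, and bars give the mean ± SD. All 7 WT-water libraries lie at or below 241 CPM for miR-129-5p, and all 6 WT-corticosterone libraries at or above 343 CPM.

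Total counts assigned to microRNAs ranged from 1011285 to 4052174 per library, and WT-water had the highest group median (2867803). The neuronal markers miR-124-3p, miR-9-5p and miR-128-3p, 3 of 3 detected, summed to between 255050 and 384470 CPM in every library, whereas 3 hindbrain and spinal cord markers summed to at most 23.0 CPM and the liver marker miR-122-5p to at most 15.5 CPM. MiR-124-3p made up most of the neuronal sum, with means of 238460 CPM in WT-water and 241190 in WT-exercise. In these groups miR-9-5p had means of 39867 and 40479 CPM, and miR-128-3p of 50304 and 30681 CPM. Summed markers of other cells had other ranges in treated than in water libraries: 2 oligodendrocyte markers summed to 4801 to 6264 CPM in WT-water, 1046 to 6044 in WT-exercise and 1123 to 5397 in WT-corticosterone. In KO-water they summed to 857 to 5104 CPM and in KO-exercise to 1227 to 3563 CPM. Over the 3 WT groups, in the same order, 3 microglia and immune markers ran from 186 to 280, from 304 to 747 and from 212 to 572 CPM, and 2 red blood cell markers from 1139 to 2399, from 421 to 1851 and from 443 to 1183 CPM. In that order, 2 vessel markers ran from 7329 to 9127, from 8401 to 17734 and from 8433 to 15193 CPM, and they ran from 6278 to 19634 CPM in KO-water and from 10343 to 13040 CPM in KO-exercise. Over all libraries, 2 choroid plexus markers ran from 4438 to 26172 CPM and 2 muscle markers from 187 to 394 CPM. Their part in the results below was not tested, and in bulk tissue fewer cells of a type and less RNA per cell cannot be told apart. The leading principal component of the deviations from group means, computed from 624 microRNAs other than the members, held 34.1% of that variance. Scored on this axis, the 7 WT-water libraries lay close together (-11.5 to -8.87), while the other groups of 5 or 6 libraries spread widely, WT-exercise from -12.5 to 15.2 and KO-water from -9.67 to 18.5.

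Exercise in WT mice raised miR-129-5p and was not accompanied by a called change of either 3p arm. The WT-exercise libraries 1 to 5 held 334, 202, 496, 565 and 596 CPM of miR-129-5p, and the 7 WT-water libraries held a lowest value of 166, a median of 222 and a highest value of 241 CPM. Thus 4 of 5 exercise libraries exceeded every water library and WT-exercise 2 lay within the water range. The log2 fold change was 1.07 ± 0.23 (SE; 95% interval 0.57 to 1.57), a 2.10-fold rise with an adjusted p of 0.00547 (edgeR quasi-likelihood, Benjamini-Hochberg). In this comparison 32.5% of 553 microRNAs were called, 19.9% as higher and 12.7% as lower, and the groups did not overlap for 10.3%. A call was thus common, and miR-129-5p ranked at position 38 by p. MiR-129-2-3p stood at 2777, 1719, 3158, 3650 and 3405 CPM in WT-exercise 1 to 5, against 1964 to 2932 with a median of 2028 CPM in WT-water. Its log2 fold change was 0.43 ± 0.19, with an adjusted p of 0.0957 by edgeR, and 0.59 with an adjusted p of 0.0058 without WT-exercise 2, the lowest exercise library, where 48.8% of all microRNAs were called. MiR-129-1-3p stood at 123.5, 102.8, 180, 125 and 162 CPM against 59.1 to 173 CPM in water, with a log2 fold change of 0.38 ± 0.24 (adjusted p 0.218 by edgeR). Of its exercise libraries 1 lay above every water library.

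The fold change of miR-129-5p with exercise in WT was also computed within each code letter, with the replicate number as a block and with the axis of within-group variation in the fit. The letter (G or H) opens each sample code and has no stated meaning. Within letter G (3 exercise, 5 water libraries) the log2 fold change of miR-129-5p was 0.68 (adjusted p 0.247 by edgeR), where 1.74% of all microRNAs were called. Within letter H (2 of each) it was 1.63 (adjusted p 0.00595), where 37.9% were called. The difference between the letters was not tested, and with the letter as a covariate the log2 fold change was 0.98 (adjusted p 0.0122 by edgeR, 27.5% called). With the replicate number as a block it was 0.93 and was not called (adjusted p 0.0625 by edgeR, 6.87% called). The 2 letter H exercise libraries held the highest levels. WT-exercise 1 and 2, both of letter G, had axis scores of -9.27 and -12.5, near those of the water libraries. At such scores WT-exercise 1 held 334 CPM, above every water library, and WT-exercise 2 held 202 CPM, within their range. With the axis score centred within each group as a covariate the log2 fold change was 0.98 and was called (adjusted p 5.6e-05 by edgeR; 51% of all microRNAs called). The centred score has a mean of 0 in each group and was taken from the same counts, members included, so it cannot take up a difference between groups and its p-values are too small. With the uncentred score, which also carries the differences between groups and was chosen after seeing the data, it was 0.38 and was not called (adjusted p 0.235 by edgeR; 4.88% called).

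In KO mice no arm was called with exercise: miR-129-5p had a higher mean and both 3p arms lower means than in water. KO-exercise 1 to 5 held 243, 451, 391, 450 and 399 CPM of miR-129-5p, and KO-water 1 to 6 held 241, 224, 311, 431, 195 and 365 CPM. The groups overlapped, and the log2 fold change was 0.44 ± 0.24 (95% interval -0.08 to 0.96; adjusted p 0.398 by edgeR). MiR-129-2-3p stood at 2275, 2387, 1928, 2275 and 2550 CPM in KO-exercise and at 3153, 4304, 3004, 3738, 2371 and 2919 CPM in KO-water, so that 5 of 6 water libraries exceeded every exercise library. Its log2 fold change was -0.46 ± 0.16 (adjusted p 0.165 by edgeR). MiR-129-1-3p stood at 92.7, 106, 71.5, 112 and 111 CPM in KO-exercise and at 133, 170, 134, 162.98, 106 and 146 CPM in KO-water, with 3 of 5 exercise libraries below every water library. The log2 fold change was -0.48 ± 0.18 (adjusted p 0.213 by edgeR). Here 4.02% of 523 microRNAs were called by edgeR, 3.06% as higher and 0.956% as lower, and the groups did not overlap for 6.12%. DESeq2 called both 3p arms, with log2 fold changes of -0.53 for miR-129-2-3p and -0.55 for miR-129-1-3p (adjusted p 0.0201 and 0.0414), among 7.27% of all microRNAs called by that tool. With the centred axis score as a covariate edgeR called all 3 arms at nearly the same fold changes, 0.47 for miR-129-5p, -0.46 for miR-129-2-3p and -0.48 for miR-129-1-3p (adjusted p 0.0042, 0.0183 and 0.0264; 23.9% called), with the limit on its p-values given above.

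The comparison in KO mice depended on which water libraries were used. KO-water 3, 4 and 6, the only KO-water libraries in the deposited table that pairs them with WT-water, had axis scores of 12.6, 18.5 and 17.5, and KO-water 1, 2 and 5 had scores of -9.24, -9.67 and -8.91. MiR-129-5p ran from 311 to 431 CPM in the former and from 195 to 241 CPM in the latter, with no overlap. These sets lie at opposite ends of the axis. The share of all microRNAs without overlap between them is not given here, so the separation cannot be taken as particular to miR-129-5p. Against KO-water 3, 4 and 6 alone, exercise gave a log2 fold change of 0.01 for miR-129-5p (adjusted p 0.978), -0.56 for miR-129-2-3p (0.0118) and -0.64 for miR-129-1-3p (0.0241), all by edgeR, where 32.8% of all microRNAs were called. Against the other 3 it gave 0.82 for miR-129-5p (adjusted p 0.0182), -0.51 for miR-129-2-3p (0.0684) and -0.46 for miR-129-1-3p (0.129), where 21.7% were called, against 4.02% with all 6. The fold changes of the 3p arms were thus negative and of like size with either set of water libraries, while that of miR-129-5p was near 0 with one of them. Within letter G the log2 fold changes of miR-129-5p, miR-129-2-3p and miR-129-1-3p were 0.29, -0.65 and -0.69, and within letter H 0.55, -0.19 and -0.23, none of them called. Of all microRNAs 0.557% were called within letter G and 0.177% within letter H.

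The fitted effect of exercise on the 3p arms was positive in WT and negative in KO, and the difference between genotypes was not called. For miR-129-2-3p the exercise effect in KO minus that in WT was -0.95 ± 0.25 on the log2 scale (95% interval -1.47 to -0.44), the smallest p of all 571 microRNAs in the joint fit of the 4 groups. For miR-129-1-3p it was -0.93 ± 0.31, at position 11 by p, and for miR-129-5p -0.71 ± 0.35. Adjusted p was 0.19 for both 3p arms and 0.281 for miR-129-5p by edgeR, and edgeR called 0% of the microRNAs here, with 101 at an unadjusted p under 0.05; limma-voom also called 0 and DESeq2 called 4 (0.701%), miR-129-2-3p among them (adjusted p 0.0496). With KO-water 3, 4 and 6 as the only KO-water libraries edgeR called the interaction for miR-129-2-3p (-0.92, adjusted p 0.00861), miR-129-1-3p (-0.96, 0.0284) and miR-129-5p (-1.0, 0.025), among 252 called microRNAs (42.3%). With the other 3 the values were -0.91, -0.81 and -0.22 (adjusted p 0.995 for each), where 0% of 601 microRNAs were called. Without WT-exercise 2 the interaction of miR-129-2-3p was -1.06 and was called (adjusted p 0.0337 by edgeR; 0.17% of all microRNAs called). With the centred axis score, under the same limit, the interaction was -0.94, -0.91 and -0.59 for miR-129-2-3p, miR-129-1-3p and miR-129-5p (adjusted p 0.00255, 0.0137 and 0.0178 by edgeR; 28.4% called).

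**Figure D2:**
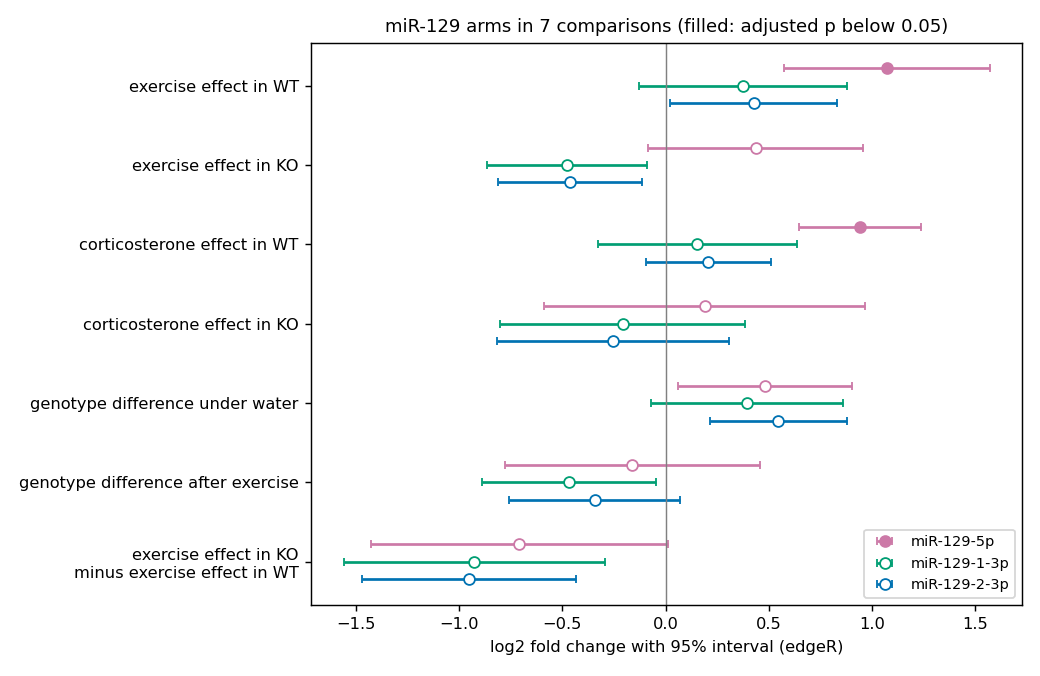
Log2 fold change of each miR-129 arm (x axis) with its 95% interval from edgeR in the 7 comparisons (y axis); filled points have an adjusted p below 0.05. The 2 filled points are miR-129-5p with exercise in WT (1.07) and with corticosterone in WT (0.94); both 3p arms lie above 0 with exercise in WT and below 0 with exercise in KO, none of these called.

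With corticosterone in WT mice every library held more miR-129-5p than any water library. WT-corticosterone held a lowest value of 343, a median of 383 and a highest value of 491 CPM, so that 6 of 6 libraries lay above all 7 water libraries. The log2 fold change was 0.94 ± 0.14 (95% interval 0.65 to 1.24), a 1.92-fold rise with an adjusted p of 0.000132 (edgeR), at position 16 by p of 547 microRNAs. In this comparison 41.9% of microRNAs were called, 24.9% as higher and 17% as lower, and the groups did not overlap for 13.7%. The 3p arms did not pass the test. MiR-129-2-3p ran from 2079 to 3065 CPM with a median of 2429 CPM, a log2 fold change of 0.21 ± 0.14 (adjusted p 0.262 by edgeR). MiR-129-1-3p ran from 77.6 to 159 CPM with a median of 114 CPM, a log2 fold change of 0.15 ± 0.23 (adjusted p 0.61).

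The fold change of miR-129-5p with corticosterone in WT was also computed with the axis scores or the code letter as covariates and within letter G. The part of the axis in this difference was not tested. WT-corticosterone 2 had an axis score of -9.81, within the range of WT-water, and held 343 CPM of miR-129-5p, above the highest water library (241 CPM). The log2 fold change of miR-129-5p was 0.93 with the centred axis score as a covariate (adjusted p 4.81e-06 by edgeR; 51.4% of all microRNAs called) and 0.95 with the code letter (adjusted p 0.00024; 42.2% called). With the uncentred score it was 0.61 and was called (adjusted p 0.0454 by edgeR; 6.58% called), while those of miR-129-2-3p and miR-129-1-3p were -0.11 and -0.34. Within letter G, 5 libraries of each group, that of miR-129-5p was 0.75 (adjusted p 0.00151 by edgeR; 25.2% called). The fits with the uncentred score and within letter G were chosen after seeing the data, and letter H holds 1 corticosterone library, WT-corticosterone 6, with 491 CPM. The exercise and corticosterone comparisons in WT share their water libraries.

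In KO mice 2 corticosterone libraries were compared with 6 water libraries. They stood at 336 and 346 CPM of miR-129-5p, 2638 and 2860 CPM of miR-129-2-3p, and 111 and 138 CPM of miR-129-1-3p. All of these lay within the KO-water range. The log2 fold changes were 0.19 ± 0.35 for miR-129-5p, -0.25 ± 0.25 for miR-129-2-3p and -0.21 ± 0.27 for miR-129-1-3p, with adjusted p of 0.89, 0.862 and 0.867 by edgeR, where 0.521% of microRNAs were called and the groups did not overlap for 13.4%. Their 95% intervals (-0.59 to 0.97, -0.82 to 0.31 and -0.80 to 0.39) do not exclude changes of the size seen with corticosterone in WT.

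Between genotypes under water, all 3 arms had higher means in KO-water, and none was called. MiR-129-2-3p was at 2371 to 4304 CPM in KO-water and at 1964 to 2932 CPM in WT-water, with 4 of 6 KO libraries above every WT library. Its log2 fold change was 0.55 ± 0.16 (adjusted p 0.0598 by edgeR). MiR-129-5p was at 0.48 ± 0.20 (adjusted p 0.112) and miR-129-1-3p at 0.39 ± 0.22 (adjusted p 0.217). With all 6 KO-water libraries edgeR called 0% of 545 microRNAs (179 had an unadjusted p under 0.05) and the groups did not overlap for 0.917%, limma-voom called 0 and DESeq2 115 (21.1%), miR-129-2-3p among them (0.58, adjusted p 0.00923). With KO-water 3, 4 and 6 alone edgeR called 354 microRNAs (60.9%), including miR-129-5p (0.96, adjusted p 2.81e-05), miR-129-2-3p (0.70, 0.000638) and miR-129-1-3p (0.61, 0.0463). With the other 3 the values were 0.02, 0.53 and 0.30, none called, where 0% of 587 microRNAs were called. The centred axis score, under the same limit, gave 0.42 for miR-129-5p and 0.55 for miR-129-2-3p (adjusted p 0.00393 and 0.00412 by edgeR; 47.2% called), and with the uncentred score miR-129-5p was at -0.02. The fold change of miR-129-2-3p was positive with either set of KO-water libraries, and that of miR-129-5p was near 0 with one of them.

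Leaving out KO-water 1, 2 or 5 brought miR-129-2-3p under the threshold in the comparison under water (0.56, 0.52 and 0.61, adjusted p 0.0354, 0.0372 and 0.02 by edgeR), while the share of all microRNAs called went from 0% to 21.4%, 19.5% and 29.2%. MiR-129-5p passed without KO-water 2 or 5 (0.62 and 0.56, adjusted p 0.0462 and 0.0426). After exercise the order of genotypes was the other way for the 3p arms: miR-129-1-3p was at -0.47 ± 0.19 and miR-129-2-3p at -0.34 ± 0.19 in KO against WT, and miR-129-5p at -0.16 ± 0.28. Adjusted p was 0.999 for each by edgeR, which called 0% of 517 microRNAs (5 at an unadjusted p under 0.05), and the groups did not overlap for 0.58%. Limma-voom and DESeq2 also called 0. By unadjusted p miR-129-1-3p was at position 3 and miR-129-2-3p at position 14 of this comparison.

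Ratios between arms of one library do not depend on the scaling between libraries, and the ratio of miR-129-2-3p to miR-129-5p fell with exercise in both genotypes and with corticosterone in WT. In WT-water miR-129-2-3p had 8.14 to 13.2 times the counts of miR-129-5p, with a geometric mean of 10.4. In WT-corticosterone the ratio was 5.77 to 6.92 (geometric mean 6.28), below every water library in 6 of 6. The difference of -0.73 on the log2 scale had an exact permutation p of 0.00117 (two-sided; adjusted p 0.021 over 18 tests of arm ratios), and it kept its call without any one library (adjusted p 0.0195 to 0.0455). In WT-exercise 1 to 5 the ratio was 8.30, 8.50, 6.36, 6.46 and 5.71, with 3 of 5 below every water library. The difference was -0.58 (exact p 0.00758, adjusted p 0.0468), and it was -0.45 within letter G and -0.75 within letter H, a split of the ratios chosen after seeing the data and not tested.

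In KO mice the same ratio was 13.1, 19.2, 9.64, 8.66, 12.1 and 7.996 in KO-water 1 to 6 and 9.34, 5.28, 4.93, 5.05 and 6.39 in KO-exercise 1 to 5. Here 4 of 5 exercise libraries lay below every water library and KO-exercise 1 did not. The difference was -0.91 (exact p 0.013, adjusted p 0.0468). It was -0.54 against KO-water 3, 4 and 6 and -1.27 against the other 3, neither called. Against the other 3 the ratios did not overlap at all, yet the adjusted p was 0.129 (exact permutation test). Even full separation was not called at those sizes, so the missing calls decide nothing. For miR-129-1-3p over miR-129-5p the differences were -0.94 with exercise in KO (exact p 0.00866, adjusted p 0.0468), -0.76 with corticosterone in WT (exact p 0.0117, adjusted p 0.0468) and -0.55 with exercise in WT (exact p 0.0909, adjusted p 0.273). KO-corticosterone had ratios of miR-129-2-3p over miR-129-5p of 7.84 and 8.26, a difference of -0.48 from KO-water (exact p 0.143, adjusted p 0.321; the smallest p possible here is 0.0357).

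The calls other than that of miR-129-2-3p over miR-129-5p with corticosterone in WT had adjusted p close to 0.05 and were lost when single libraries were left out. For miR-129-2-3p over miR-129-5p with exercise in WT this was so without WT-water 2, 3, 4, 6 or 7 or WT-exercise 3, 4 or 5 (adjusted p 0.0584 to 0.0655). With exercise in KO it was so without any one library except KO-exercise 1 (0.0571 to 0.103). The ratio of miR-129-1-3p over miR-129-5p with exercise in KO lost its call without any library except KO-water 4 or KO-exercise 1 (0.0571 to 0.0857). With corticosterone in WT it did so without any library except WT-water 1 or 5 or WT-corticosterone 1 (0.0545 to 0.0909). The sign of each of these differences was the same in every such fit. For miR-129-1-3p over miR-129-5p with exercise in WT the difference was -0.71 and passed without WT-water 5 (adjusted p 0.039, exact permutation test).

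Between the 3p arms of the 2 genes no difference was detected in any comparison. MiR-129-1-3p had 0.0302 to 0.0654 times the counts of miR-129-2-3p across WT libraries and 0.0372 to 0.0502 times across KO libraries. Differences in this ratio ran from -0.16 to 0.04 on the log2 scale, with adjusted p between 0.571 and 0.929. How short reads that fit both hairpins were counted is not stated, which limits this comparison. Between genotypes under water no arm ratio was called (adjusted p 0.833 to 0.929, exact permutation test). Within KO-water the ratio of miR-129-2-3p over miR-129-5p separated KO-water 3, 4 and 6 (7.996 to 9.64) from KO-water 1, 2 and 5 (12.1 to 19.2). Its log2 difference from WT-water was 0.11 with all KO-water libraries, -0.25 with KO-water 3, 4 and 6, and 0.48 with KO-water 1, 2 and 5.

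**Figure D3:**
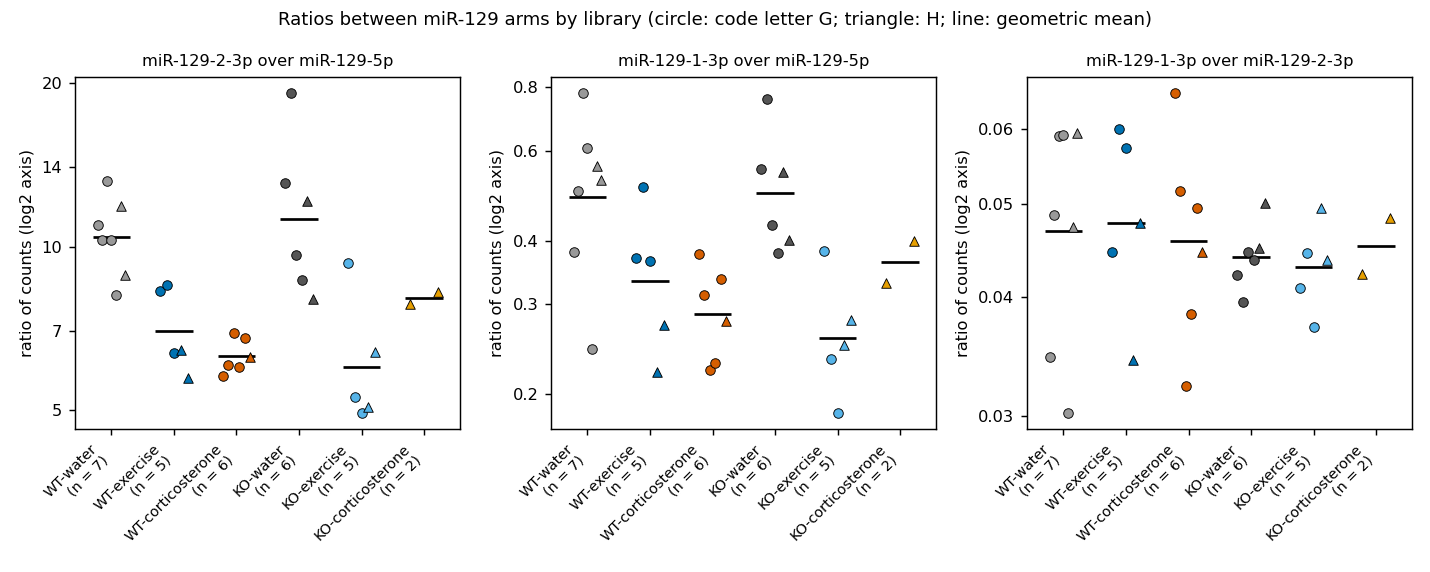
Ratio of counts between pairs of miR-129 arms (y axis, log2 scale) in each library, by group; circles are code letter G, triangles letter H, and lines are geometric means. The ratio of miR-129-2-3p over miR-129-5p is 5.77 to 6.92 in WT-corticosterone against 8.14 to 13.2 in WT-water, while the ratio between the 3p arms has group means of 0.0430 to 0.0478.

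Within groups the arms varied together to different degrees. Over the deviations of log2 CPM from group means in 31 libraries, the 2 3p arms had a Pearson r of 0.58 (permutation p 0.00073, adjusted over 3 pairs 0.0022) and a Spearman rho of 0.63 (permutation p 0.00053, adjusted 0.0016). Without WT-water 3 and 5, the libraries farthest from the median, r was 0.53, and it was 0.59 within letter G (20 libraries) and 0.58 within letter H (11 libraries). Short reads that fit both hairpins may have been counted for either 3p arm, which limits the reading of this r. MiR-129-5p and miR-129-2-3p had an r of 0.60 (permutation p 0.0099, adjusted 0.015) and a rho of 0.46 (permutation p 0.024, adjusted 0.031). This r was 0.47 without WT-exercise 2 and KO-exercise 1, 0.52 within letter G and 0.79 within letter H. MiR-129-5p and miR-129-1-3p had an r of 0.36 (permutation p 0.039, adjusted 0.039) and a rho of 0.41 (permutation p 0.031, adjusted 0.031), with an r of 0.29 without the same 2 libraries, 0.25 within letter G and 0.67 within letter H.

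MiR-129-5p had a larger correlation with the axis of within-group variation than the 3p arms, a difference that was not tested. The axis here was the centred score, computed with the members included and with its sign set so that miR-129-5p correlated positively. Over 31 libraries the deviations of miR-129-5p from group means had a Pearson r of 0.82 with that score. It was 0.42 for miR-129-1-3p and 0.41 for miR-129-2-3p. These libraries share the scaling and the depth behind both measures. A larger r in size was found for 23.0% of microRNAs above miR-129-5p and for 64.3% above miR-129-2-3p, so a close relation to the axis was common.

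**Figure D4:**
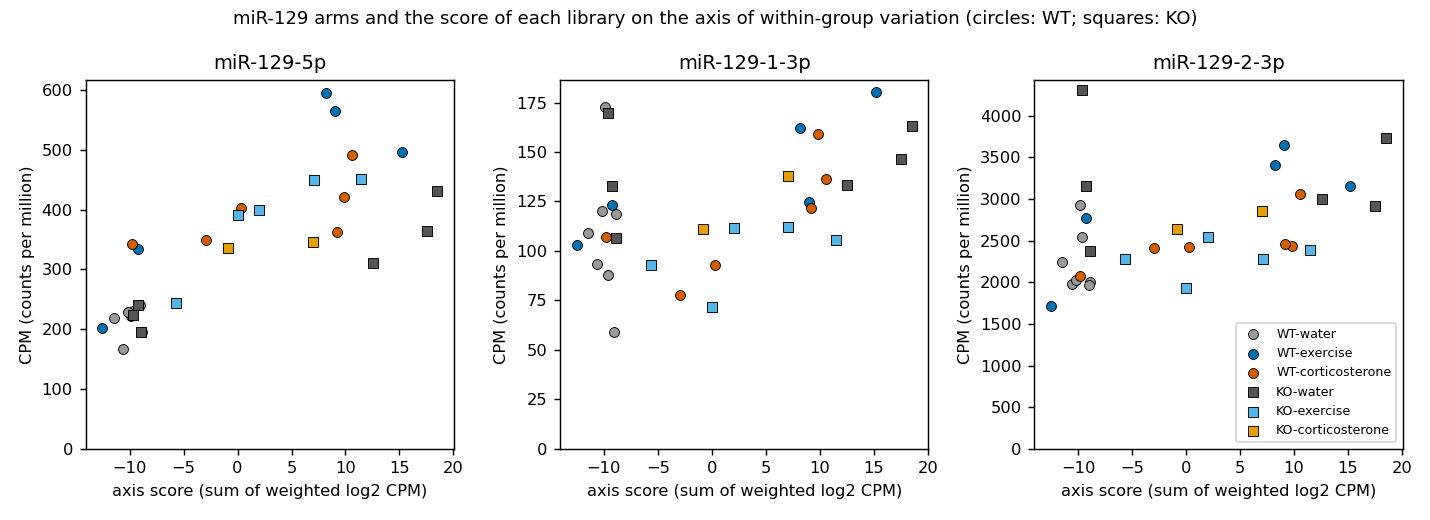
CPM of each miR-129 arm (y axis, linear, from 0) against the score of the library on the axis of within-group variation (x axis, a weighted sum of log2 CPM of 624 other microRNAs); circles are WT and squares KO. The 7 WT-water libraries sit between -11.5 and -8.87, and WT-corticosterone 2 and WT-exercise 1 lie at like scores with more miR-129-5p (343 and 334 CPM). WT-exercise 2 (score -12.5, 202 CPM) and KO-water 1, 2 and 5 (scores -9.24, -9.67 and -8.91, with 241, 224 and 195 CPM) lie within the WT-water range of miR-129-5p.

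The microRNAs whose levels were most like those of each arm over the 31 libraries were taken from 248 others with a mean of at least 100 CPM. Likeness was the Pearson r of log2 CPM, which includes differences between groups and shared scaling. For miR-129-5p these were miR-26a-5p (r = 0.94), hosted in an intron of a Ctdsp phosphatase gene, miR-139-5p (0.94), hosted in Pde2a, and miR-146b-5p (0.92), a relative of the immune regulator miR-146a. For miR-129-2-3p they were miR-582-3p (0.72), hosted in Pde4d, miR-129-1-3p (0.71) and miR-541-5p (0.67) of the imprinted Dlk1-Dio3 locus. MiR-129-1-3p had miR-129-2-3p (0.71), miR-582-3p (0.60) and the synaptic miR-138-5p (0.60). The 5p arm thus shared none of its nearest microRNAs with the 3p arms.

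MiR-129 was set beside 21 other microRNAs that have reported links to neuronal excitability, synaptic scaling or epilepsy, all of which were tested in each comparison. With exercise in WT 7 rose and 1 fell, 38.1% of the list against 32.5% of all microRNAs, with a median log2 fold change of 0.14 against 0.04. The rises included miR-132-3p (1.13 ± 0.14) and miR-212-3p (0.75 ± 0.12), induced by neuronal activity, and miR-134-5p (0.79 ± 0.21), a dendritic regulator of spine size. They also included miR-218-5p (1.17 ± 0.27), miR-135a-5p (0.87 ± 0.17) and miR-203-3p (0.70 ± 0.18). MiR-129-5p at 1.07 lay near the upper of these values. With exercise in KO 2 rose, miR-132-3p (0.80 ± 0.17) and miR-146a-5p (1.38 ± 0.26), a brake on inflammatory signalling, and none fell, 9.5% of the list against 4.02% of all 523 microRNAs tested. With corticosterone in WT 9 rose and 3 fell, 57.1% of the list against 41.9% of all microRNAs, with a median of 0.27 against 0.06. Among these miR-218-5p rose by 1.26 ± 0.17, miR-203-3p by 0.89 ± 0.22, miR-135a-5p by 0.86 ± 0.19 and miR-132-3p by 0.58 ± 0.17. MiR-22-3p was at -1.13 ± 0.23 and miR-329-3p, of the Dlk1-Dio3 locus, at -0.79 ± 0.15. No member of the list was called by edgeR with corticosterone in KO, between genotypes or for the interaction. Of all microRNAs 0.521% were called with corticosterone in KO and 0% in those other comparisons, so the lack of calls is not particular to the list.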

How the data were processed

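Libraries were built from the small RNA fraction with an Ion Torrent kit and read on an S5 instrument, per the labels' protocols. Each of 5 files deposited by the authors covers 1 pair of groups and gives raw read counts per mature microRNA as whole numbers. The submitters' processing notes list cutadapt 2.3, BWA, featureCounts (Subread), limma 3.54.1 and the mouse build GRCm38 (mm10). They state no roles, and the sources used here do not give the strand or multi-mapping settings. Libraries present in several files had the same counts in each. The file for genotypes holds KO-water 3, 4 and 6 and a column that the labels give to KO-exercise 4. Groups were taken from the labels, so all 6 KO-water libraries entered. Libraries of a group differed by far more than sampling noise (chi-square over degrees of freedom at least 16.1), so each counted once.

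Each comparison was fitted on its groups with edgeR 4.0.16 in R 4.3.3 (filterByExpr, TMM, glmQLFit with robust estimation, quasi-likelihood F test), with Benjamini-Hochberg adjustment over all microRNAs tested and a threshold of 0.05. Standard errors came from the F statistic. Arm ratios used log2 of counts plus 0.5, with exact permutation tests in scipy 1.17.1. Correlations of within-group deviations used 100000 permutations within groups. Scripts were tested on simulated data. The named microRNAs are the members, the 3 most alike of each by r, and per comparison at most 6 called members of the list of 21 by p. Cell type markers were lists of up to 3 microRNAs; vessel, choroid plexus and muscle markers were also summed. The members and lists were chosen with earlier results of these data known. Alternatives were DESeq2 1.42.0, its size factors, no scaling, limma-voom (limma 3.58.1), no filter, a joint fit, the replicate block, the code letter, axis covariates, subsets of KO-water and leaving out each library.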

Additional observations from a re-analysis of the deposited data

How the results depend on the processing

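Depth limits miR-129-1-3p most, with 105 to 535 counts per library, and KO-corticosterone has 2 libraries. In the sentences below the arms are 5p, 1-3p and 2-3p, single values are log2 differences, and percentages are shares of the tested microRNAs that were called, against 32.5% with exercise in WT, 4.02% with exercise in KO, 41.9% with corticosterone in WT, 0.521% with corticosterone in KO, and 0% in the other comparisons. Values not given here kept their direction and side of the threshold under the alternatives run, and the cause was not tested.

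A check of correlations had no reference for unpaired samples, so it does not settle whether replicate numbers pair the samples. Over 29 pairs of same-numbered libraries the correlations of deviations ran from -0.50 to 0.45, and in 7 the own number correlated best. With the replicate block 5p with exercise in WT was 0.93 (adjusted p 0.0625, edgeR, 6.87%), and the shares were 1.53% with exercise in KO and 13.5% with corticosterone in KO. It changed no other call of an arm.

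With the centred axis as a covariate 2-3p with exercise in WT passed at 0.39 (51%). With exercise in KO the arms passed at 0.47 (5p), -0.48 (1-3p) and -0.46 (2-3p), with 23.9%, and 5.21% were called with corticosterone in KO. Under water 5p passed at 0.42 and 2-3p at 0.55 (47.2%), and the interaction at -0.59, -0.91 and -0.94 for 5p, 1-3p and 2-3p (28.4%). With the uncentred score, added after seeing the data, 5p with exercise in WT was 0.38 (4.88%) and the arms with exercise in KO passed at 0.48, -0.47 and -0.46 (23.9%). With corticosterone in WT 1-3p was -0.34 and 2-3p -0.11 (6.58%), in KO 5.38% were called, and 5p under water was -0.02.

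Within letter G 5p with exercise in WT was 0.68 (1.74%), 0.557% were called with exercise in KO, 2-3p with corticosterone in WT was -0.0037 and the ratio of 1-3p over 2-3p 0.04 (25.2%), and 5p between genotypes after exercise was 0.09. Within letter H 2-3p with exercise in WT passed at 0.90, and 0.177% were called with exercise in KO. There the ratios of 1-3p over 5p and over 2-3p were -1.14 and -0.39 with exercise in WT, and 0.11 and 0.20 between genotypes after exercise. Under water 1-3p over 5p was -0.21 and 2-3p over 5p -0.06, and 1-3p over 2-3p with corticosterone in KO was -0.07.

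DESeq2 called 1-3p (-0.55) and 2-3p (-0.53) with exercise in KO (7.27%), 1.22% with corticosterone in KO, 2-3p under water (0.58, 21.1%) and the interaction of 2-3p (-0.95, 0.701%). Its size factors in edgeR called 2-3p under water (0.58, 4.77%). Without a filter on low counts 0.783% were called with exercise in KO and 1.58% under water. In the joint fit of all 6 groups the shares were 6.38% with exercise in KO, 1.28% with corticosterone in KO and 11% under water, with 2-3p passing at 0.53.

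With KO-water 3, 4 and 6 alone, exercise in KO gave -0.64 for 1-3p and -0.56 for 2-3p (32.8%), corticosterone in KO gave -0.12 for 5p (19.2%), and the genotypes under water differed by 0.96, 0.61 and 0.70 for 5p, 1-3p and 2-3p (60.9%). The interaction was -1.0, -0.96 and -0.92 (42.3%). The ratio of 1-3p over 5p was -0.64 with exercise in KO and -0.28 under water, that of 2-3p over 5p was -0.54 and -0.25, and that of 1-3p over 2-3p was -0.03 with corticosterone. With the other KO-water libraries 5p with exercise in KO passed at 0.82 (21.7%), 7.08% were called with corticosterone in KO, and the exercise ratios of 1-3p over 5p, 2-3p over 5p and 1-3p over 2-3p were -1.24, -1.27 and 0.03.

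Leaving out 1 library at a time, the shares ran from 18.4% (without WT-exercise 5) to 48.8% (without WT-exercise 2) with exercise in WT, from 2.42% (without KO-exercise 4) to 5.58% with exercise in KO, from 0% to 29.2% under water (without KO-water 5) and from 0% to 0.17% for the interaction. With exercise in WT 2-3p ran from 0.33 to 0.59, and with corticosterone in WT 1-3p ran from -0.03 (without WT-water 5) to 0.23. Under water 5p ran from 0.41 to 0.62 and 2-3p from 0.52 to 0.65, and the interaction of 2-3p from -1.06 to -0.82. The ratio of 1-3p over 5p ran from -0.71 to -0.40 with exercise in WT, from -1.08 to -0.82 with exercise in KO, from -0.93 to -0.65 with corticosterone in WT and from -0.14 to 0.14 under water. That of 2-3p over 5p ran from -0.65 to -0.50 with exercise in WT, from -1.06 to -0.75 with exercise in KO and from -0.04 (without KO-water 2) to 0.21 under water. That of 1-3p over 2-3p ran from -0.08 to 0.15, from -0.09 to 0.02 and, with corticosterone in WT, from -0.14 to 0.07, and in KO it was -0.06 without KO-corticosterone 2.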
